A study of Homo sapiens and Mus musculus with 13 samples.

Results

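The milk protein genes described here are 9 genes chosen by name: the caseins Csn1s1, Csn1s2a, Csn1s2b, Csn2 and Csn3, the whey proteins Wap and Lalba, and Glycam1 and Btn1a1. All 9 were found among the 55228 gene symbols of the mouse tumor table, and 8 of them passed the filter of a mean of at least 0.5 FPKM. FPKM values are fragment numbers corrected for the length of the gene and the depth of the library. RNA-Seq was performed on whole mammary tumors of 3-month-old female MMTV-PyVT mice, a breast cancer model in which the mouse mammary tumor virus promoter drives a viral oncogene, the polyoma virus middle T antigen, in mammary epithelium. There were 3 Trim11+/+ and 3 Trim11+/- tumors, with 1 library each. All 6 tumors carried the MMTV-PyVT transgene on a hybrid background of C57BL/6N and FVB/N, and in the Trim11+/- mice 1 allele of Trim11 lacked exons 2-6 in the whole body, so a change in a tumor can come from any of its cells. The reproductive state of the mice was not given in the sources used here, and the labelled wild type is a tumor, not a normal gland.

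Milk proteins are made by secretory luminal cells of the mammary gland in late pregnancy and lactation. Prolactin acts through its receptor Prlr, the kinase Jak2 and the transcription factors Stat5a and Stat5b, together with Elf5 and the glucocorticoid receptor Nr3c1, to switch these genes on. Caseins assemble with calcium into micelles, and whey proteins stay in solution. Tumors of MMTV-PyVT mice arise from mammary epithelium, and milk protein transcripts have long been used to follow secretory differentiation in such tissue.

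The target and the tissue were checked first. Trim11 was at 35.8, 36.3 and 39.2 FPKM in the Trim11+/+ tumors and at 24.0, 22.8 and 22.9 FPKM in the Trim11+/- tumors, a ratio of means of 0.626 with no overlap. The 9 luminal epithelium markers, among them Krt8, Krt18 and Epcam, summed to between 1688 and 2270 FPKM in every tumor. Recovered library totals were between 8793200 and 11117125 reads.

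The 5 casein genes lie in 1 cluster on chromosome 5 of mm10 (chr5:87666208-87932665), which spans 266 kb. Csn1s1, Csn1s2a, Csn1s2b and Csn2 encode the calcium-sensitive caseins, which carry the calcium phosphate of the micelle, and Csn3 encodes kappa-casein, which coats the micelle and keeps it in solution. The first 45 bases of their coding sequences, which encode all or part of the signal for secretion, are shown from the GENCODE M21 transcripts. A relation of these bases to the RNA levels below was not tested. They are read 5′ to 3′, and capitals mark bases identical to Csn2 at the same position.
Csn2: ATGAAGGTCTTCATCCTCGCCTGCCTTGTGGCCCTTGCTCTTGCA
Csn1s1: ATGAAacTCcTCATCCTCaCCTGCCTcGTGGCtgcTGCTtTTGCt
Csn1s2a: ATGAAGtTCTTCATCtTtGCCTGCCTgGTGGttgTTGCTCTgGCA
Csn1s2b: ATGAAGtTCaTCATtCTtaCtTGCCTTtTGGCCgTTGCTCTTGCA
Csn3: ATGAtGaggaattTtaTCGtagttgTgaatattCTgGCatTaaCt
Of the 45 bases, 35 in Csn1s1, 37 in Csn1s2a and 37 in Csn1s2b were the same as in Csn2, against 16 in Csn3. Although these starts look alike, no exact stretch of 50 bases in the main transcript of any of the 9 genes occurred in a transcript of another gene. Near matches and exons outside the main transcripts were not checked.

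Csn3 had the highest level of the 9 genes in every tumor. It was at 1434, 2526 and 2428 FPKM in the Trim11+/+ tumors and at 1990, 1987 and 1079 FPKM in the Trim11+/- tumors, from 48119 to 106629 reads per tumor. Ranked among all gene symbols of a tumor it was between 6th and 18th. Its highest value was 2.34 times its lowest, the narrowest range of the 9 genes, and the genotypes overlapped. In whole tumors, fewer cells of a type and less RNA per cell cannot be told apart for any of these genes.

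The other caseins were far lower, and Csn1s1, Csn1s2a and Csn2 varied far more. Csn2, which encodes beta-casein, was at 0.674, 63.8 and 11.9 FPKM in the Trim11+/+ tumors and at 55.8, 14.3 and 3.53 FPKM in the Trim11+/- tumors. The highest tumor, Trim11+/+ 2, had 94.7 times the level of the lowest, Trim11+/+ 1, so both ends of the range lay within 1 genotype. These values rest on 51 to 4493 reads, and the 95% Poisson interval of the lowest, 0.502 to 0.886 FPKM, covers counting error only.

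Csn1s2a followed the same order of tumors. Its values were 0.496, 54.9 and 5.15 FPKM in the Trim11+/+ tumors and 54.5, 8.24 and 1.14 FPKM in the Trim11+/- tumors, a range of 111-fold. Csn1s1, which encodes alpha-s1-casein, was at 4.38, 53.6 and 17.6 FPKM and at 43.6, 23.1 and 5.79 FPKM, a range of 12.2-fold. For all 3 genes Trim11+/+ 2 was highest, followed by Trim11+/- 1, Trim11+/- 2, Trim11+/+ 3, Trim11+/- 3 and Trim11+/+ 1.

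Csn1s2b stayed near the limit of detection, at 0.279, 0.647 and 0.187 FPKM in the Trim11+/+ tumors and 0.486, 0.427 and 0.240 FPKM in the Trim11+/- tumors. With 8 to 28 reads per tumor and a mean of 0.378 FPKM it did not pass the filter and was not tested between genotypes. It was nevertheless also highest in Trim11+/+ 2 and second in Trim11+/- 1, although the counting intervals of these tumors, 0.430 to 0.935 and 0.308 to 0.729 FPKM, overlapped.

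**Figure D1:**
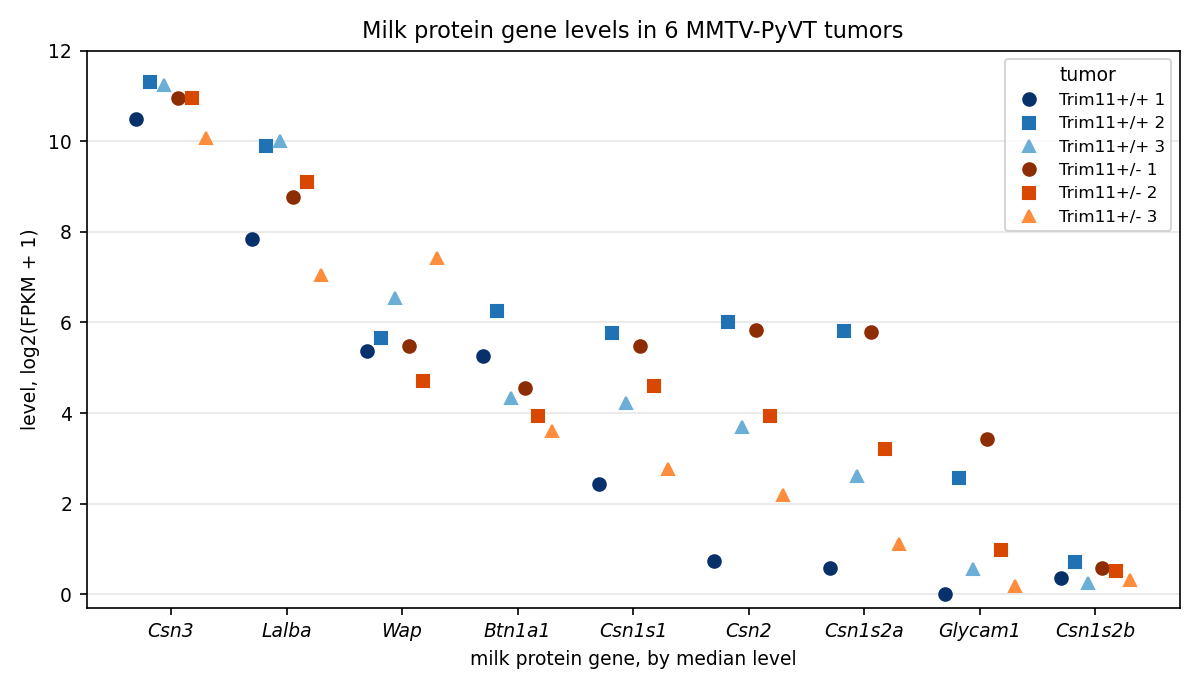
Levels of the 9 milk protein genes on a scale of log2(FPKM + 1), ordered by their median, with 1 point for each of 6 tumors (blue, Trim11+/+; orange and brown, Trim11+/-). Csn3 sits between 1079 and 2526 FPKM in every tumor, while Csn2 and Csn1s2a run from under 1 FPKM in Trim11+/+ 1 to over 50 FPKM in Trim11+/+ 2 and Trim11+/- 1.

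Lalba encodes alpha-lactalbumin, which turns the galactosyltransferase B4galt1 into lactose synthase. It was second to Csn3, at 227, 956 and 1033 FPKM in the Trim11+/+ tumors and at 438, 550 and 131 FPKM in the Trim11+/- tumors, a range of 7.86-fold. Trim11+/+ 1 and Trim11+/- 3 were lowest, as for Csn3. Lalba lies on chromosome 15 (chr15:98480400-98482721).

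Wap, the whey acidic protein gene on chromosome 11 (chr11:6635482-6638637), had another order of tumors. It was at 40.7, 49.9 and 92.5 FPKM in the Trim11+/+ tumors and at 43.5, 25.0 and 170 FPKM in the Trim11+/- tumors. Its highest tumor, Trim11+/- 3, was the lowest of all for Csn3, Lalba and Btn1a1. It was detected in all 6 tumors, with 222 to 1839 reads.

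Glycam1 encodes a mucin-like glycoprotein that is secreted in milk and is also made by the high endothelial venules of lymph nodes. It had no read in Trim11+/+ 1, which allows up to 0.129 FPKM (3 reads), and was at 4.93 and 0.467 FPKM in the other Trim11+/+ tumors and at 9.78, 0.960 and 0.131 FPKM in the Trim11+/- tumors. Trim11+/- 1 and Trim11+/+ 2 were highest, as for the calcium-sensitive caseins. Of 8 markers of high endothelial venules and lymph node stroma, Chst4, Ccl19 and Nkx2-3 were at 0 in all 6 tumors, and Madcam1, Fut7 and Ccl21a reached 0.0685, 0.209 and 0.229 FPKM. Cxcl13 (0.297 to 2.42 FPKM) and Ackr1 (0.243 to 0.896 FPKM) passed the filter, and both were highest in Trim11+/- 1, as Glycam1 was. The sum of the 8 markers was 0.932 to 1.97 FPKM in the Trim11+/+ and 0.540 to 3.32 FPKM in the Trim11+/- tumors, again highest in Trim11+/- 1. Their part in the level of Glycam1 was not tested.

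Btn1a1 encodes butyrophilin, a membrane protein of the milk fat globule that binds xanthine dehydrogenase (Xdh). It was at 37.5, 75.6 and 19.2 FPKM in the Trim11+/+ tumors and at 22.5, 14.3 and 11.2 FPKM in the Trim11+/- tumors. Trim11+/- 1 exceeded Trim11+/+ 3, so the genotypes overlapped. Btn1a1 lies on chromosome 13 (chr13:23456992-23465901).

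By median level the order was Csn3 (1988 FPKM), Lalba (494), Wap (46.7), Btn1a1 (20.8), Csn1s1 (20.3), Csn2 (13.1), Csn1s2a (6.70), Glycam1 (0.713) and Csn1s2b (0.353). The range of Csn3 over the 6 tumors lay above that of every other gene, and it exceeded Lalba 2.35-fold to 8.21-fold within a tumor. For the other neighbours in the order the ranges overlapped. Csn2 was above Csn1s2a in 6 of 6 tumors and Lalba above Wap in 5, while Btn1a1 and Csn1s1, Csn1s1 and Csn2, and Glycam1 and Csn1s2b changed places in 2 of 6.

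The order depends on the length by which reads were divided. The deposited values match division by the summed length of all annotated exons, which for Csn2 is 6926 bases against 1329 in its main transcript, a ratio of 5.21, and for Lalba is 771 bases in both. Per length of the main transcript the medians were 8331 for Csn3, 494 for Lalba, 90.1 for Csn1s1, 85.4 for Wap, 68.3 for Csn2, 25.5 for Csn1s2a and 25.1 for Btn1a1. On this scale Csn1s1 moved from place 5 to place 3 and Btn1a1 from place 4 to place 7, and Csn3 and Lalba kept the highest places. Ratios of FPKM of 1 gene between tumors do not depend on this length. Values of log2(FPKM + 1), their SD, correlations and fold changes, and the filter of a mean of at least 0.5 FPKM do depend on it.

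Together the 9 genes held 0.539, 1.17 and 1.12% of the summed FPKM in the Trim11+/+ tumors and 0.837, 0.821 and 0.425% in the Trim11+/- tumors. Csn3 and Lalba made up 86.3 to 96.7% of this. The mix differed between tumors more than the sum did: Csn3 was 35.6 and 39.6 times Csn2 in Trim11+/- 1 and Trim11+/+ 2, but 2127 times Csn2 in Trim11+/+ 1. Wap was 0.780 and 0.781 times Csn2 in those first tumors, and 60.4 and 48.0 times in Trim11+/+ 1 and Trim11+/- 3.

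The other protein-coding genes within the casein cluster did not share these levels. Prr27, between Csn1s2b and Csn3, was at or under 0.418 FPKM, and Odam, the neighbour of Csn3 that encodes an enamel-associated protein, was at 0.327 to 0.724 FPKM. Outside the cluster, the estrogen sulfotransferase gene Sult1e1 was at most at 0.15 FPKM and 2310003L06Rik was at 0 in all 6 tumors. The genes next to Wap, Lalba, Glycam1 and Btn1a1 were at most 2.08 FPKM, apart from Tbrg4 beside Wap (18.6 to 26.1 FPKM) and Abt1 beside Btn1a1 (5.21 to 6.75 FPKM). Of these neighbours, Odam, Tbrg4, Ramp3, Abt1 and Btn2a2 passed the filter. None of them met the fold and p rule given below, which called 3.61% of all genes tested. The others, among them Prr27, Sult1e1 and 2310003L06Rik, were not tested between genotypes. Csn3 overlaps the annotated gene 1700066N21Rik but no exon of it, and the libraries did not mark strand.

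**Figure D2:**
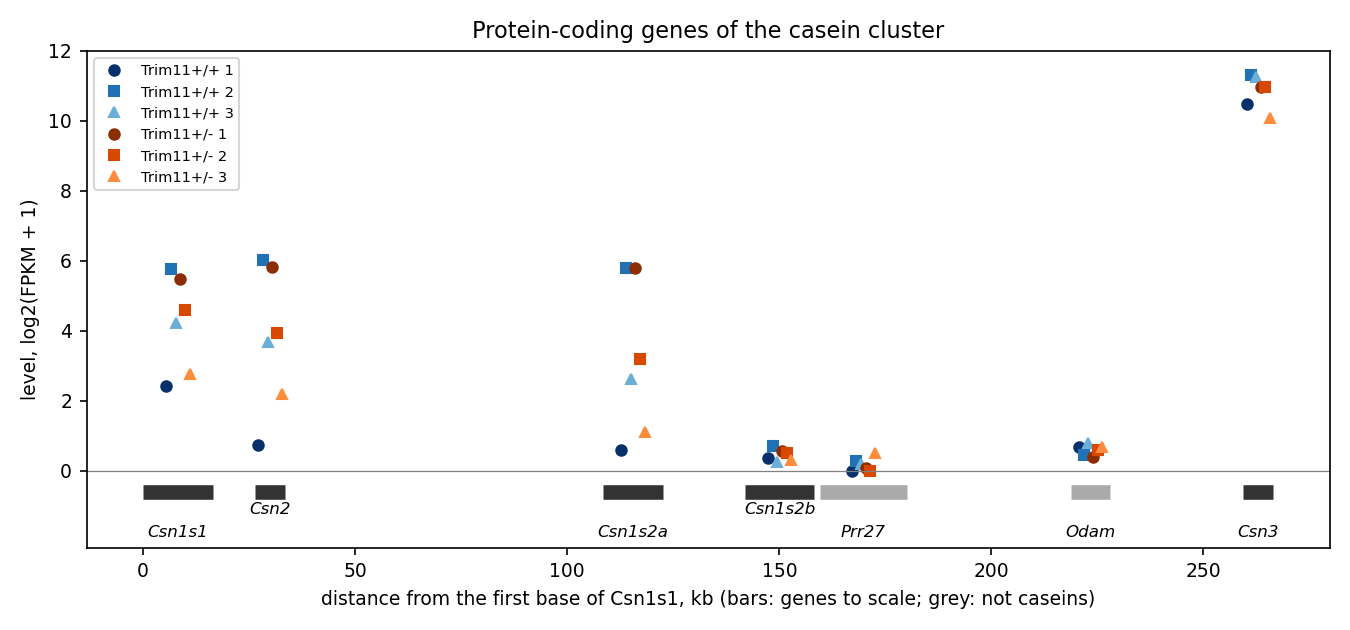
The 7 protein-coding genes of the casein cluster, drawn to scale by distance in kb from the first base of Csn1s1 (dark bars, caseins; grey bars, Prr27 and Odam), with the level of each gene on a scale of log2(FPKM + 1) in each of 6 tumors above it. Csn1s1, Csn2 and Csn1s2a spread widely and in the same order of tumors, Csn3 is high in every tumor, and Csn1s2b, Prr27 and Odam stay under 1 FPKM.

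The spread over tumors was set beside that of all 17328 genes tested, whose SD of log2(FPKM + 1) had a median of 0.21 and a 90th percentile of 0.55. The SD was 2.24 for Csn1s2a, 2.05 for Csn2, 1.40 for Glycam1, 1.37 for Csn1s1, 1.16 for Lalba, 0.97 for Btn1a1, 0.96 for Wap and 0.47 for Csn3. Of the genes tested, 99.9% had a smaller SD than Csn1s2a or Csn2, and 86.4% a smaller one than Csn3. The SD within genotypes was smaller than that over all tumors for Btn1a1 (0.76 against 0.97). For the other 7 genes it was no smaller, from 0.48 for Csn3 and 1.17 for Lalba to 2.27 for Csn2 and more for Csn1s2a.

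Whether the genes moved together was asked by correlating log2(FPKM + 1) over the 6 tumors for each of 36 pairs. Of these, 3 had an adjusted p under 0.05 and 7 an unadjusted one. Csn1s1 and Csn2 had a Pearson r of 0.98 (exact permutation p = 0.00139, the smallest that 6 tumors allow, adjusted p = 0.025) and a Spearman rho of 1 (exact permutation p = 0.00278, adjusted p = 0.0333). Csn1s2a and Csn2 also had an r of 0.98 (exact permutation p = 0.00139, adjusted p = 0.025) and a rho of 1 (exact permutation p = 0.00278, adjusted p = 0.0333). Without the 2 tumors farthest from the median of the first gene, r was 0.99 and 0.97. Csn1s1 and Csn1s2a had an r of 0.98 as well, with an adjusted exact permutation p of 0.07 for r and 0.0333 for rho.

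Glycam1 moved with these caseins, although it lies on another chromosome. With Csn1s2a its r was 0.96 (exact permutation p = 0.00278, adjusted p = 0.0333) and rho 0.94 (exact permutation p = 0.0167, adjusted p = 0.1). With Csn2 r was 0.90 (exact permutation p = 0.0125, adjusted p = 0.075) and rho 0.94 (exact permutation p = 0.0167, adjusted p = 0.1). Without the 2 farthest tumors r was 0.98 and 0.94. For Csn1s2a this left only tumors in which Glycam1 had 0 to 18 reads.

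Csn3 and Lalba formed the other close pair, with an r of 0.99 (exact permutation p = 0.00556, adjusted p = 0.05) and a rho of 0.89 (exact permutation p = 0.0333, adjusted p = 0.171). With Csn2, in its own cluster, r of Csn3 was 0.74 (exact permutation p = 0.0861, adjusted p = 0.232) and rho 0.77 (exact permutation p = 0.103, adjusted p = 0.285). With Csn1s1 r was 0.82 but 0.08 without the 2 farthest tumors, so that relation rests on Trim11+/+ 1 and Trim11+/- 3. Deviations from the genotype means, permuted within genotypes, gave an r of 0.99 for Csn3 with Lalba (exact permutation p = 0.111) and 0.87 for Csn3 with Csn2 (exact permutation p = 0.0278, the smallest this permutation allows). The calls of these pairs thus depend on this choice, and the difference between the correlations was not tested. In the same way p was 0.0278 for Csn1s1 with Csn2 and for Csn1s2a with Glycam1, and 0.0556 for Csn1s2a with Csn2 and with Csn1s1 (exact permutation tests, unadjusted).

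Wap had a negative r with each of the other 7 genes that passed the filter, with a median of -0.35, and none of these had an exact permutation p under 0.05 (p from 0.397 to 0.636). The sign rests on Trim11+/- 3. Without this tumor r turned from -0.44 to 0.47 with Csn3, from -0.35 to 0.52 with Lalba, from -0.34 to 0.15 with Btn1a1, from -0.25 to 0.07 with Csn2 and from -0.39 to 0.02 with Csn1s1, and was -0.07 with Glycam1 and -0.0058 with Csn1s2a. Leaving out any other tumor kept r negative with all 7 genes. With Csn3 rho was 0.03 over the 6 tumors. Over the 28 pairs of the 8 genes the median r was 0.52, and 8 pairs (28.6%) had an r of at least 0.8. Over the 150121128 pairs of all genes tested the median was 0.0035 and 3.78% were at least 0.8. Without Wap the median over 21 pairs was 0.72.

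**Figure D3:**
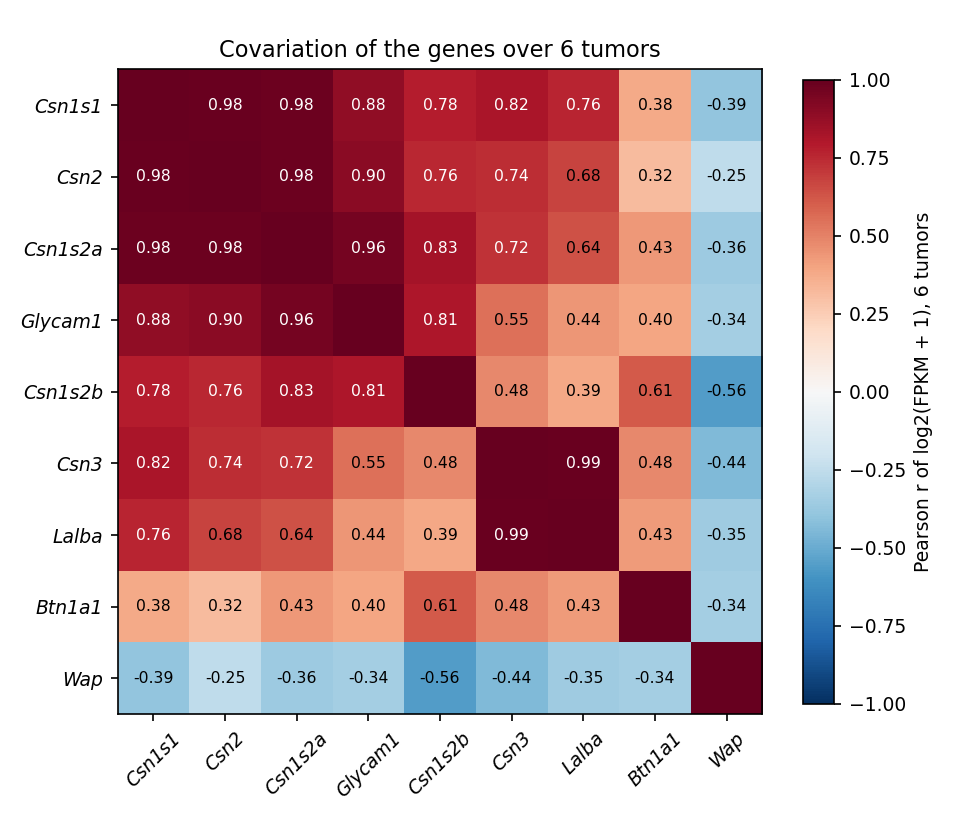
Pearson r of log2(FPKM + 1) over 6 tumors for each pair of the 9 milk protein genes (red, positive; blue, negative). Csn1s1, Csn2, Csn1s2a and Glycam1 form a block of r from 0.88 to 0.98, Csn3 and Lalba a pair at 0.99, and the column of Wap is negative, a sign that does not hold for 5 of its 7 partners that passed the filter once Trim11+/- 3 is left out.

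The comparison of genotypes asked whether loss of 1 Trim11 allele went with a change in these genes. Of the 8 genes that passed the filter, 1 met the fold and p rule, that is, mean FPKM differed at least 1.5-fold between genotypes and the unadjusted limma p was under 0.05. This was Btn1a1, lower in Trim11+/- tumors. Over all 17328 genes tested the rule called 3.61% (1.87% lower and 1.74% higher), and 0.00577% had an adjusted p under 0.05, which is 1 gene and not a milk protein gene. None of the 8 separated the genotypes without overlap, against 13.4% of all genes tested (6.78% with the Trim11+/- tumors lower).

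Mean Btn1a1 was 44.1 ± 28.8 FPKM (SD, n = 3) in the Trim11+/+ and 16.0 ± 5.84 FPKM (SD, n = 3) with 1 Trim11 allele deleted. Its log2 fold change was -1.25 (standard error 0.49, 95% interval -2.43 to -0.08; limma p = 0.0399, Benjamini-Hochberg adjusted p = 0.707), and the two-sided exact permutation test gave p = 0.2, where 3 tumors against 3 allow no less than 0.1. The call was lost when any 1 of 4 tumors was left out: p was 0.0827 without Trim11+/+ 1, 0.0922 without Trim11+/+ 2, 0.0941 without Trim11+/- 2 and 0.116 without Trim11+/- 3 in limma, where the log2 fold change was -1.26, -0.76, -1.20 and -1.04. It was -1.73 without Trim11+/+ 3 and -1.51 without Trim11+/- 1, and the call held in both.

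Mean Lalba was 739 ± 445 FPKM (SD, n = 3) in Trim11+/+ and 373 ± 217 FPKM (SD, n = 3) in Trim11+/- tumors, a log2 fold change of -0.94 (95% interval -2.73 to 0.85; limma adjusted p = 0.828). Without Trim11+/+ 1 alone it met the rule, at -1.65 (limma unadjusted p = 0.0404). Csn3 was at 2129 ± 605 and 1685 ± 525 FPKM (SD, n = 3 each), a log2 fold change of -0.35 (95% interval -1.16 to 0.46; limma adjusted p = 0.858). These intervals hold differences of more than 2-fold for Csn3 and more than 6-fold for Lalba, so a lack of a call does not show equal levels.

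For the remaining genes the direction was not fixed. The log2 fold change was 0.14 for Csn1s1, 0.37 for Csn1s2a, 0.50 for Csn2, 0.49 for Glycam1 and -0.00019 for Wap, and the lowest limma adjusted p among them was 0.943. The ratio of mean FPKM was below 1 for Csn1s1 (0.959) and Csn2 (0.964), opposite to their log2 fold changes. The 95% interval of Csn2 ran from -2.97 to 3.96. Leaving out 1 tumor turned the sign of each of these 5 genes.

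**Figure D4:**
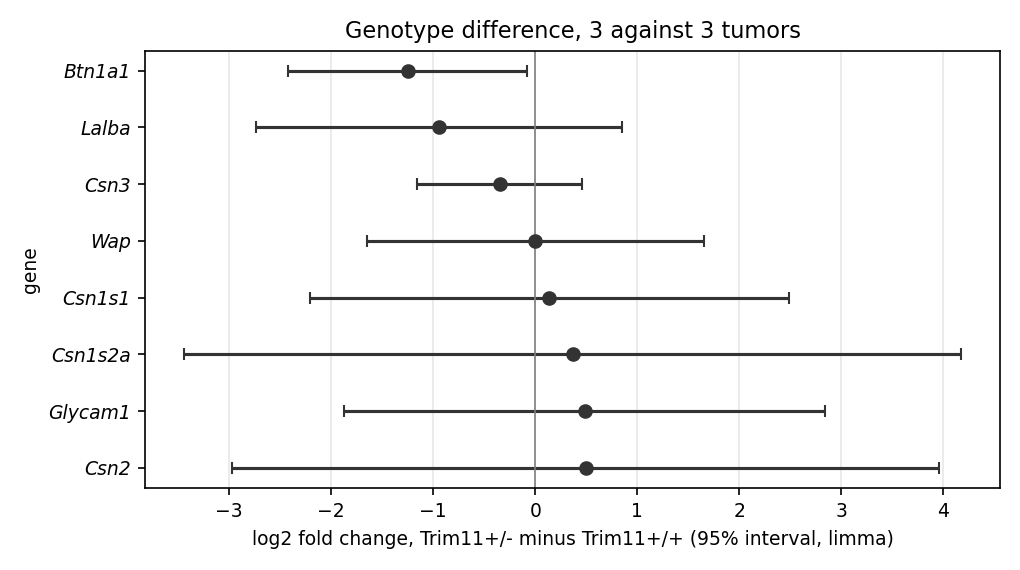
Log2 fold change of log2(FPKM + 1) between Trim11+/- and Trim11+/+ tumors for the 8 genes that passed the filter, with the 95% interval from limma over 3 tumors per genotype. The interval lies below 0 for Btn1a1 (-2.43 to -0.08) and spans 0 for the other 7 genes.

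The prolactin pathway was described by a list of 22 genes, of which 21 passed the filter. The median log2 fold change was -0.04 against -0.0048 over all genes tested. None was called higher in Trim11+/- tumors and 2 were called lower, against 1.74% and 1.87% of all genes tested. Those 2 were Cish, a feedback inhibitor that Stat5 induces (ratio 0.498, limma adjusted p = 0.673), and the cyclin Ccnd1 (ratio 0.635, limma adjusted p = 0.699). Cish was at 7.40, 9.16 and 4.25 FPKM in the Trim11+/+ and at 3.59, 2.62 and 4.16 FPKM in the Trim11+/- tumors. The genotypes did not overlap, as for 6.78% of all genes tested in this direction.

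The upstream factors Elf5, Stat5a, Stat5b, Jak2 and Prlr were present in every tumor at steadier RNA levels than Csn1s1, Csn1s2a and Csn2. Elf5, which directs secretory differentiation, was at 90.1 to 110 FPKM, Stat5a at 9.67 to 21.9, Stat5b at 17.0 to 29.2, Jak2 at 12.8 to 15.2 and Prlr at 5.69 to 9.62 FPKM. Their SD of log2(FPKM + 1) was between 0.09 (Jak2) and 0.41 (Stat5a), against 2.05 for Csn2, 0.47 for Csn3 and a median of 0.21 over all genes tested. RNA levels do not measure the activity of these proteins. The summed level of the list and Csn2 had an r of 0.43 (exact permutation p = 0.4, adjusted p = 0.631) and a rho of 0.49 (exact permutation p = 0.356, adjusted p = 0.711), and r was 0.37 without the 2 tumors farthest in Csn2. Taken singly, r with Csn2 was 0.79 for Stat5b, 0.69 for Stat5a and for Prlr, 0.34 for Elf5 and 0.15 for Jak2. These single r were not tested. Wnt4, a progesterone-induced ligand, followed the mean z score of the 8 milk protein genes most closely within the list (r = 0.91), between 0.0218 FPKM in Trim11+/+ 1 and 2.32 FPKM in Trim11+/- 1.

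Of 19 other genes for milk secretion, 18 passed the filter, with a median log2 fold change of -0.02. Of these, 1 was called higher and 2 lower in Trim11+/- tumors, against 1.74% and 1.87% of all genes tested. Ltf, which encodes the iron-binding milk protein lactoferrin, was at 269, 312 and 361 FPKM and at 234, 143 and 88.1 FPKM (ratio 0.494, limma adjusted p = 0.635). Trf, the transferrin gene, was at 2749, 2465 and 2704 FPKM and at 2182, 1574 and 1253 FPKM (ratio 0.633, limma adjusted p = 0.674). For both genes the genotypes did not overlap, as for 6.78% of all genes tested with the Trim11+/- tumors lower. Lpo, the lactoperoxidase gene, was called higher (ratio 2.52, limma adjusted p = 0.693) at 0.502 to 2.68 FPKM.

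The partners of Lalba and Btn1a1 were steadier than these genes themselves. B4galt1, the partner of Lalba in lactose synthase, was at 47.1 to 58.9 FPKM, with an SD of log2(FPKM + 1) of 0.11 against 1.16 for Lalba. Xdh, the partner of Btn1a1 in the fat globule, was at 50.8 to 72.9 FPKM, with an SD of 0.20 against 0.97. Of all genes tested 3.61% met the rule, against none of the 8 genes of lactose synthesis and 1 of the 18 genes of milk lipid synthesis. This was Thrsp, a lipogenic gene, which was higher in Trim11+/- tumors (ratio 2.13, limma adjusted p = 0.486) at 166, 123 and 121 against 233, 271 and 370 FPKM.

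The genes whose pattern was most like that of the milk protein genes were ranked by Pearson r with their mean z score over the 6 tumors, among 8265 genes with a mean of at least 5 FPKM. In order they were Mfge8, Eva1b, Sfi1, Klf2, Pttg1ip, Slfn8, Larp1, Ndrg1, Meltf and Il13ra1, with r from 0.99 down to 0.97. Mfge8 encodes lactadherin, a protein of the milk fat globule, and was at 146, 434 and 265 FPKM in the Trim11+/+ and at 340, 240 and 157 FPKM in the Trim11+/- tumors. These r are a description of the highest among 8265 genes and have no p.

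Markers of the cell types that a mammary tumor can hold were set beside these genes. Of the 10 adipocyte markers, 10 had an r of at least 0.8 with the mean z score, with a median of 0.91, where 1059 of the 17328 genes tested reached 0.8 and the median was -0.06. Summed adipocyte markers were at 60.0, 429 and 96.4 FPKM in the Trim11+/+ tumors and at 355, 189 and 29.9 FPKM in the Trim11+/- tumors. Trim11+/+ 2 and Trim11+/- 1 were highest, as for Csn2. Adipoq, the adiponectin gene, ran from 1.48 to 29.3 FPKM and Plin1, a lipid droplet coat gene, from 0.300 to 7.89 FPKM.

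The luminal progenitor markers had a median r of 0.81 with the mean z score, and 3 of 6 (Kit, Cd14 and Itgb3) reached 0.8. Their sum was 123, 281 and 215 FPKM in the Trim11+/+ and 265, 186 and 91.2 FPKM in the Trim11+/- tumors. Proliferation markers went the opposite way, with a median r of -0.81. Mki67, Ccnb1 and Cdk1 were at or below -0.8, and the sum of the 5 markers was 147 and 148 FPKM in Trim11+/+ 1 and Trim11+/- 3, the tumors lowest in Csn2, against 94.3 to 105 FPKM in the others. The part of these cell types in the levels of the milk protein genes was not tested.

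In relations chosen after these values were seen, Csn2, Csn3 and Wap were each correlated with 18 lists on the scale of log2(summed FPKM + 1), 54 relations in all. None had an adjusted p under 0.05, and 10 had an unadjusted one. Csn2 and adipocyte markers had an r of 0.89 (exact permutation p = 0.0208, adjusted p = 0.178) and a rho of 0.94 (exact permutation p = 0.0167, adjusted p = 0.15), and r was 0.96 without the 2 tumors farthest in Csn2. With adipocyte markers r of Csn3 was 0.81 (exact permutation p = 0.0486, adjusted p = 0.2625), but -0.09 without 2 tumors. That of Wap was -0.63 (exact permutation p = 0.182, adjusted p = 0.447). Csn3 and proliferation markers had an r of -0.93 (exact permutation p = 0.00833, adjusted p = 0.131) and a rho of -0.83 (exact permutation p = 0.0583, adjusted p = 0.35), and r fell in size to -0.54 without 2 tumors. Csn3 and endothelial markers had an r of 0.98 (exact permutation p = 0.00417, adjusted p = 0.131) and a rho of 0.94 (exact permutation p = 0.0167, adjusted p = 0.15), and r was 0.77 without 2 tumors. With luminal progenitor markers r of Csn3 was 0.94 (exact permutation p = 0.00694, adjusted p = 0.131), but 0.38 without 2 tumors. With T cell markers it was 0.91 (exact permutation p = 0.00972, adjusted p = 0.131). Only 2 of these 6 markers passed the filter, and the 6 summed to 1.08 to 4.30 FPKM. For Csn2, r was 0.87 with hormone-sensing luminal markers (exact permutation p = 0.0264, adjusted p = 0.178). With proliferation markers r of Csn2 was -0.80 (exact permutation p = 0.0736, adjusted p = 0.361).

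**Figure D5:**
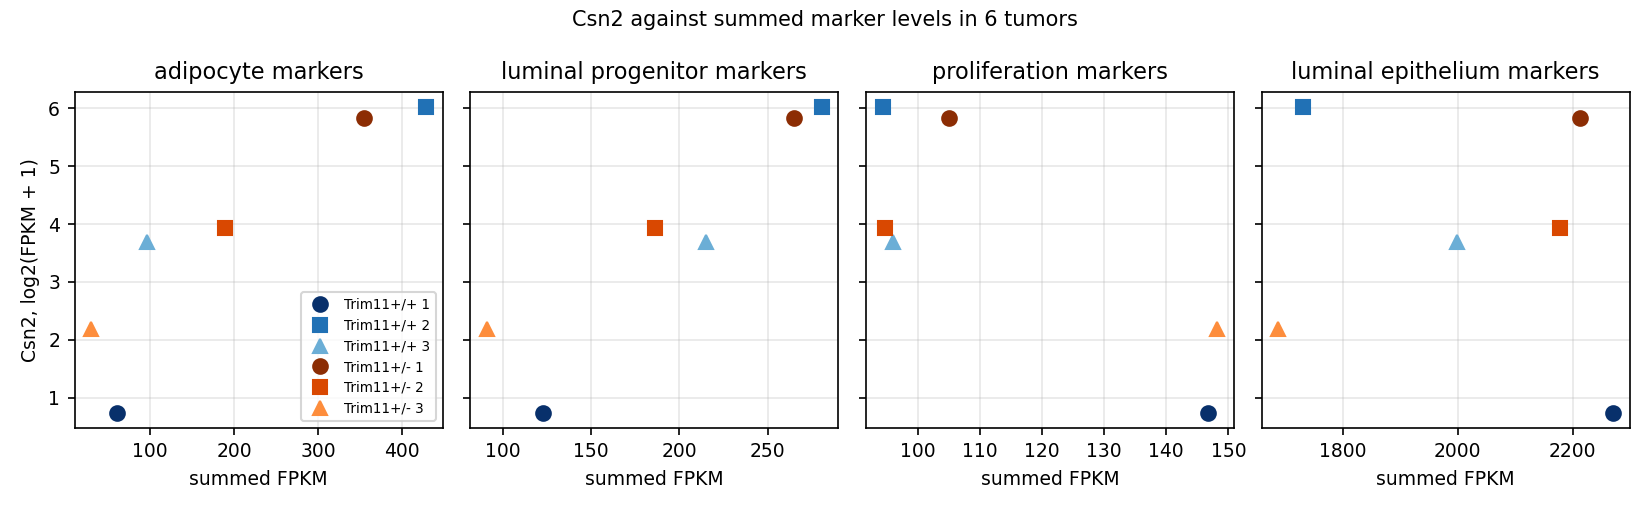
Csn2 on a scale of log2(FPKM + 1) against the summed FPKM of 4 marker lists, with 1 point for each of 6 tumors (blue, Trim11+/+; orange and brown, Trim11+/-). Csn2 is high where adipocyte (29.9 to 429 FPKM) and luminal progenitor markers are high and low in the tumors with the most proliferation markers. With luminal epithelium markers r was -0.16 over the 6 tumors and 0.88 without the 2 tumors farthest in Csn2, both on log2 scales. None of these relations had an adjusted exact permutation p under 0.05.

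Markers of other tissues and cells also differed between tumors. Skeletal muscle markers summed to 22.1, 105 and 227 FPKM in the Trim11+/+ and to 273, 1.81 and 2.28 FPKM in the Trim11+/- tumors, with an r of 0.53 with Csn2 (exact permutation p = 0.296, adjusted p = 0.592) and a rho of 0.37 (exact permutation p = 0.497, adjusted p = 0.839). Without 2 tumors that r was 0.66. Of 10 basal epithelium markers, 5 were called lower in Trim11+/- tumors, against 1.87% of all genes tested, and none had a limma adjusted p under 0.05. The 10 markers summed to 173 to 434 FPKM in the Trim11+/+ and to 91.6 to 129 FPKM in the Trim11+/- tumors. Krt5, which marks basal cells, was at 105, 29.2 and 62.5 FPKM and at 18.8, 7.14 and 16.9 FPKM. The hormone receptor gene Esr1 was at 0.606 to 1.74 FPKM and Pgr at 0.0643 to 1.42 FPKM. None of 6 B cell markers passed the filter, and their sum was at most 1.05 FPKM.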

How the data were processed

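RNA was isolated from whole tumors, poly(A) RNA was selected and non-directional libraries were sequenced in pairs. According to the methods, reads were trimmed after FastQC and with Cutadapt, mapped to mm10 with HISAT2 and quantified with Cufflinks with default parameters. The processing notes in the labels also list Bowtie 0.12.2. The authors deposited FPKM values, 1 column per library, replicates not pooled. Of the values above 0, 98.8% were whole reads (within 0.02) divided by the summed exon length in GENCODE M21 and the library total, which gave the reads and depths stated here. The human cell lines of the series were not used here. Replicates of a genotype are separate samples in the labels, so p-values measure the spread between these tumors. The mouse of origin of each tumor was not given in the sources used here, so the tumors may not stand for separate animals.

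Of 55335 entries, the one with the highest mean was kept for each symbol. log2(FPKM + 1) of 17328 symbols with a mean of at least 0.5 FPKM was tested with lmFit and eBayes with a trend in limma 3.58.1 (R 4.3.3), with Benjamini-Hochberg adjustment and genotype as the only term. A log2 fold change on this scale understates changes of low genes. Correlations and exact permutation tests used Python 3.11.15, numpy 2.4.6, pandas 2.3.3 and scipy 1.17.1, and figures matplotlib 3.10.9. The computations were tested on simulated data.

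Genes open to being named were the 9 genes, any gene of the milk secretion and prolactin lists, genes of other lists that met the fold and p rule or define a cell type, the 10 genes most like the mean z score (leaving out symbols beginning with Gm and those ending with Rik or -ps), the genes of the casein cluster and the nearest protein-coding genes. The 9 genes and the lists, written from general knowledge, were chosen with earlier results of these data known. Alternatives were other pseudocounts, filters, scalings, eBayes without a trend, the replicate block, each tumor left out, deviations from genotype means and, chosen after seeing the data, limma voom on recovered reads and the length of the main transcript.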

Additional observations from a re-analysis of the deposited data

How the results depend on the processing

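The count of genes called higher and lower in Trim11+/- tumors was 301 and 324, and 479 and 491 with any mean FPKM above 0. Leaving out each tumor gave 272 to 443 higher and 295 to 467 lower, 0 to 1 milk protein genes called, 0 to 1 genes with an adjusted p under 0.05, a median r over the 28 pairs of 0.36 to 0.72 (lowest without Trim11+/+ 2) and a median SD of 1.12 to 1.41. Without Trim11+/+ 1 the 1 milk protein gene called was Lalba, not Btn1a1. The genes with an adjusted p under 0.05 went from 1 to 0 in limma with the replicate block (826 with an unadjusted p under 0.05) and in limma voom on recovered reads (1137). Deviations of tumors of the same replicate number correlated at -0.33, 0.04 and -0.13, and those of different numbers at -0.29 to 0.37. With 3 tumors per genotype these values cannot show whether the numbers pair the tumors. The fit with the replicate block called 289 genes higher and 284 lower, with 1 milk protein gene called. Deviations from the genotype means gave a median r of 0.73. The log2 fold change of Wap turned to 0.0056 with scaling by median ratios, 0.0045 and 0.00089 with scaling to the same summed FPKM with and without the 9 genes, and 0.035 with voom. Without 1 tumor the log2 fold change ranged from -0.72 to 0.95 for Csn1s1, -0.85 to 1.77 for Csn1s2a, -0.87 to 1.76 for Csn2, -0.78 to 0.58 for Wap and -0.47 to 1.25 for Glycam1, and r of Csn2 and Wap from -0.63 to 0.072 (without Trim11+/- 3). In the other settings each of the remaining log2 fold changes of the 8 genes kept its direction and side of the threshold. The cause of these shifts was not tested. Depth limits Csn1s2b and Glycam1, with no more than 28 and 232 reads.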
